A study of Mus musculus with 23 samples.

Results

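Recovery of the mouse heart from lipopolysaccharide (LPS) was followed by setting hearts taken on day 7 after LPS against hearts taken on day 1. LPS is the endotoxin of the outer membrane of Gram-negative bacteria. The 8 libraries were chosen by their labels alone, 4 marked LPS day 7 and 4 marked LPS day 1, out of 23 in the study. Both groups were poly-A RNA of whole hearts from female wild-type C57BL/6J mice, 10 weeks old, given LPS at 2.5 mg/kg, and their labels differ by the day of collection alone. Further groups serve as points of reference. They are the untreated LPS baseline (4 libraries) and, from an arm given isoproterenol (ISO, which acts on beta-adrenergic receptors) at 300 mg/kg, ISO day 7 (4 libraries) and ISO day 1 (3 libraries). Each time point holds other mice, so no heart was followed over time, and the spread between libraries is a spread between mice.

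Endotoxin is bound by LPS-binding protein and CD14 and passed to Toll-like receptor 4, which signals through Myd88 to NF-kB and through Ticam1 to interferon regulatory factors. NF-kB drives cytokines, chemokines and its own inhibitors, while interferons act through factors such as Stat2 and Irf9 to switch on antiviral and antigen-presentation genes. In the heart, endotoxin is known for depressing contraction and for changing the use of fatty acids as fuel, and mice given a sublethal dose recover over days.

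Most of the transcriptome differed between day 7 and day 1. Of 15732 genes tested with edgeR's quasi-likelihood test, 10444 (66.4%) had a Benjamini-Hochberg adjusted p under 0.05, the threshold behind each statement that a gene rose, fell or was called. At day 7, 5336 genes (33.9%) were higher and 5108 (32.5%) lower than at day 1. At least 2-fold changes among them numbered 3737 (23.8%), of which 2195 (14.0%) were higher and 1542 (9.80%) lower. Because so many genes were called, the number of called members in any list below is to be read against these shares. The split depends on scaling. With library totals in place of the trimmed-mean (TMM) factors it was 6776 higher and 3584 lower, and with limma on log2(TPM + 0.1) it was 6463 higher and 2930 lower. Those choices moved the median of all genes to 0.20 and 0.23 on the log2 scale, against 0.01 with TMM.

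The 8 libraries held 22202149 to 29448916 estimated reads. Cardiomyocyte transcripts dominated each of them, as the tissue label implies, with Myh6, the main adult mouse myosin heavy chain, at 35342 to 40703 CPM at day 7 and 23617 to 30288 CPM at day 1. Here and throughout, CPM are read counts scaled to library size with TMM factors, except that sums over cell type markers use library totals. The 4 lung and liver marker genes looked for were too low to test. Among the day 1 libraries, replicates 1 and 2 stood apart from replicates 3 and 4, with a chi-square between libraries, averaged over genes, of 13.96 and 11.01 within those pairs and 31.98 to 48.34 across them. Leaving out replicates 1 and 2 gave 9306 called genes, and leaving out replicates 3 and 4 gave 10329. Haemoglobin reads made up 0.210% ± 0.165 of day 7 libraries and 0.0532% ± 0.00660 of day 1 libraries (SD, n = 4 each; two-sided exact permutation p = 0.02857, the smallest 4 against 4 allows, adjusted p = 0.143 over 5 library measures), with day 7 replicate 2 at 0.454%. All 6 red blood cell markers tested were called higher at day 7. In whole tissue, fewer cells of a type and less RNA per cell cannot be told apart.

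**Figure D1:**
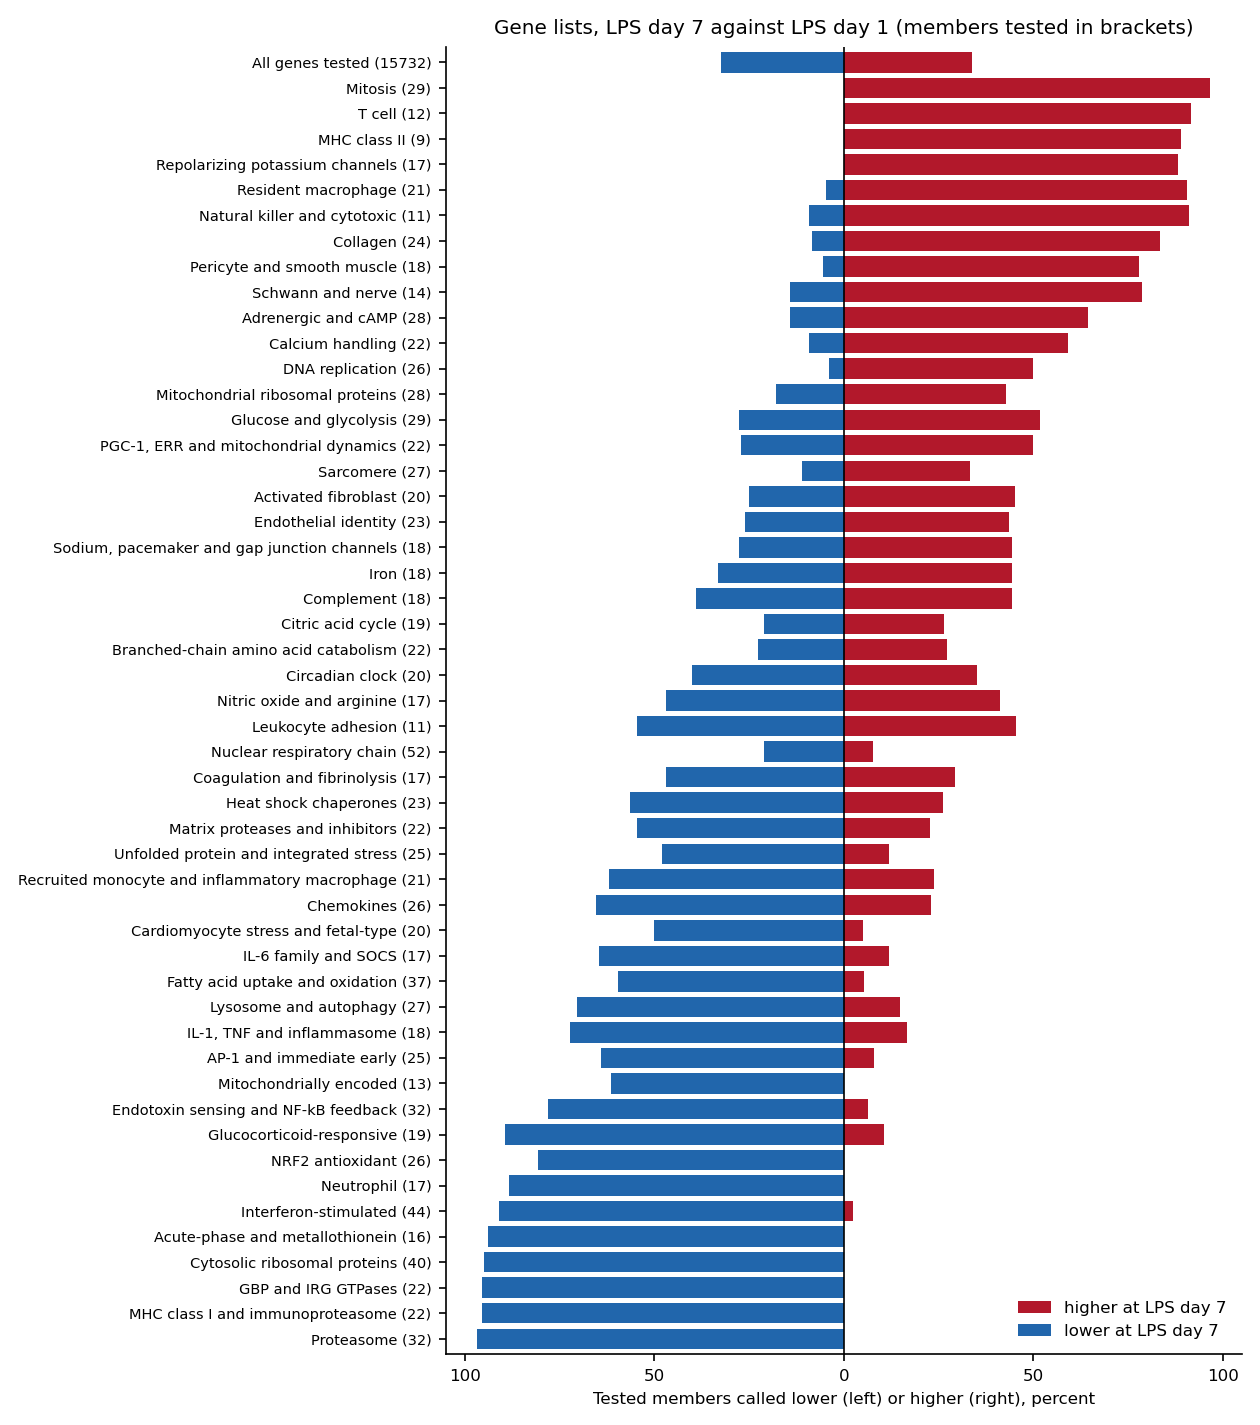
Share of the tested members of each gene list called higher (right) or lower (left) at LPS day 7 than at LPS day 1, in percent of tested members, with the share over all 15732 genes in the top row. Interferon, GTPase, class I, acute-phase and proteasome lists lie almost wholly to the left, and mitosis, natural killer, potassium channel and collagen lists to the right.

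The largest falls included acute-phase and inflammatory transcripts. Saa3, a serum amyloid A protein made by inflamed tissue, stood at 0.449, 0.451, 0.596 and 0.120 CPM at day 7 against 727, 617, 713 and 601 CPM at day 1, a log2 change of -10.64 ± 0.35 (SE; edgeR adjusted p = 1.33e-16). Lcn2, or lipocalin, which binds bacterial iron carriers, had 3.02, 2.25, 2.84 and 2.25 CPM at day 7 and 2069, 2313, 2040 and 1634 CPM at day 1. Its log2 change was -9.60 ± 0.27 (SE). In both cases the groups lay far apart, and every day 7 library was near the baseline means of 0.344 CPM for Saa3 and 3.53 CPM for Lcn2. Serpina3m, a protease inhibitor, had no read in any day 7 library and 4.68 to 6.66 CPM at day 1, which makes it at least 169-fold lower when 3 counts over the 4 libraries are taken as the floor. On the same floor Gm45193, an unannotated processed transcript at 6.50 to 9.64 CPM at day 1, was at least 261-fold lower. Csf3, the granulocyte colony-stimulating factor, had a single read in all of the day 7 libraries and 1240 reads at day 1, a ratio of 0.000879 (95% counting interval 2.22e-05 to 0.00491). The lincRNA 1200007C13Rik, the long pentraxin Ptx3, the titin-associated protein gene Ankrd2 and the related inhibitors Serpina3f and Serpina3n fell, with log2 changes of -9.98, -7.43, -7.14, -7.00 and -6.88 in that order. Genes of the Serpina3 cluster are near copies of each other, so the division of reads among them is uncertain.

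All 11 tested genes of the acute-phase list fell, with a median log2 change of -6.88. Lrg1, a leucine-rich glycoprotein of the acute-phase response, had 33.5, 37.7, 34.8 and 31.7 CPM at day 7 against 2127, 2314, 2632 and 2136 CPM at day 1 (log2 change -6.06 ± 0.16, SE; edgeR adjusted p = 6.42e-18). Haptoglobin (Hp), which binds free haemoglobin, fell by 6.42 on the log2 scale and ceruloplasmin (Cp), a copper carrier, fell by 2.44. Saa2, Orm1, Orm2, Orm3, Hpx and the fibrinogen genes Fga, Fgb and Fgg were too low to test. Metallothioneins, small proteins that bind zinc and copper, moved with them. Mt1 stood at 107, 102, 95.9 and 98.3 CPM at day 7 and at 2201, 2811, 1269 and 1354 CPM at day 1. Mt2 had 12.7 to 17.5 CPM at day 7 against 1178, 1595, 504 and 527 CPM at day 1 (log2 change -5.97 ± 0.44, SE). For both, day 1 replicates 1 and 2 were the higher pair.

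**Figure D2:**
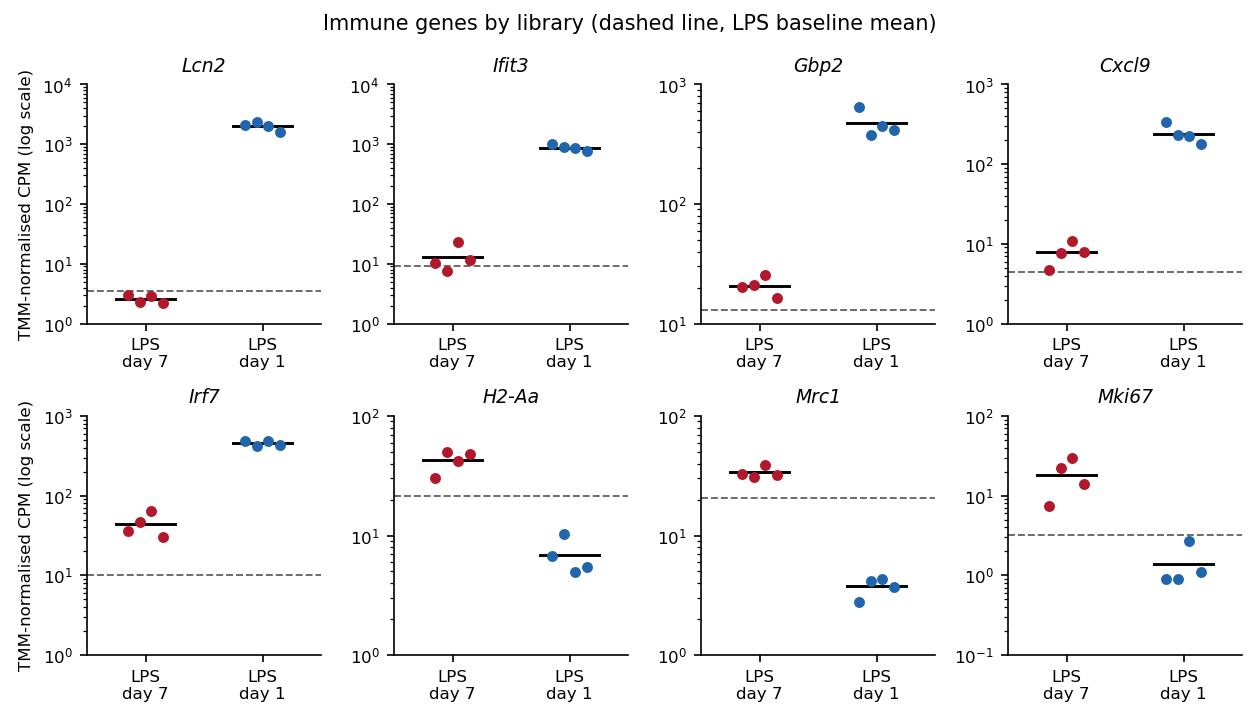
TMM-normalised CPM (log scale) of 8 immune genes in each LPS day 7 and LPS day 1 library, with group means as bars and the LPS baseline mean as a dashed line. Lcn2, Ifit3, Gbp2, Cxcl9 and Irf7 were lower in every day 7 library than in any day 1 library, and H2-Aa, Mrc1 and Mki67 were higher.

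Interferon-stimulated genes fell together. Of 44 tested members 40 were lower and 1 was higher at day 7, with a median log2 change of -2.66. Among the 32 effectors 30 fell and none rose, and the remaining 2, Samd9l and Sp100, were at -0.25 and -0.07. Samd9l was called at -0.32 without day 1 replicate 3 and at -0.41 without day 7 replicate 3. Ifit3b, of a family that binds viral RNA, had 4.17, 6.12, 7.40 and 4.70 CPM at day 7 and 342, 328, 262 and 242 CPM at day 1 (log2 change -5.70 ± 0.16, SE; edgeR adjusted p = 8.21e-18). Its neighbour Ifit3, a near copy, stood at 10.4, 7.51, 22.8 and 11.6 CPM at day 7 and 778 to 997 CPM at day 1. Isg15, a ubiquitin-like protein joined to other proteins during antiviral responses, had 2.08, 3.53, 5.09 and 2.73 CPM at day 7 against 92.0, 74.9, 82.2 and 74.0 CPM at day 1. Ifi35, the apoptosis-linked Xaf1 and Ifit2 fell, with log2 changes of -2.64, -3.72 and -4.49. Day 7 replicate 3 held the highest value of the 4 for Ifit3b, Ifit3, Isg15, Xaf1 and Ifit2.

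The signalling genes behind these targets were split. Irf7, a transcription factor that amplifies interferon production, stood at 36.4, 46.2, 64.3 and 30.1 CPM at day 7 and at 479, 426, 489 and 437 CPM at day 1 (log2 change -3.37 ± 0.16, SE; edgeR adjusted p = 6.53e-14). Stat2, Irf1 and Irf9 fell, with log2 changes of -2.58, -2.31 and -1.002. The receptor chains differed in direction. Ifngr2, a chain of the interferon-gamma receptor, was higher at day 7, at 180, 163, 177 and 174 CPM against 61.0, 56.8, 66.6 and 68.6 CPM at day 1 (log2 change 1.46 ± 0.07, SE). Its partner chain Ifngr1 was lower, at 35.3 to 40.3 CPM against 47.1 to 56.04 CPM, though at -0.15 and not called on log2(TPM + 0.1), and Ifnar2 of the type I receptor fell by 0.70 on the log2 scale. Ifnar1 was at 0.15 and not called with TMM, and called at 0.33 with library totals and at 0.18 without day 7 replicate 1 or 2.

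Guanylate-binding proteins (GBP) and immunity-related GTPases (IRG), interferon-induced enzymes that attack vacuoles holding intracellular pathogens, fell more than the interferon list as a whole. Of 22 tested members 21 fell and none rose, with a median log2 change of -3.68. Gbp2 had 20.2, 21.2, 25.2 and 16.3 CPM at day 7 against 654, 376, 452 and 413 CPM at day 1 (log2 change -4.51 ± 0.17, SE; edgeR adjusted p = 9.39e-16). Irgm1, a regulator of the other IRG proteins, stood at 22.5, 27.8, 35.1 and 20.95 CPM at day 7 and at 970, 977, 528 and 606 CPM at day 1. Iigp1 had 48.4 to 72.3 CPM at day 7 and 1318 to 2005 CPM at day 1, and Igtp 42.6 to 62.0 CPM and 1010 to 1867 CPM. In each of these genes the groups were separated by more than 10 times. The member not called was 9930111J21Rik1, at -0.01, and its near copy 9930111J21Rik2 was at -0.28 and called, a call lost at -0.22 without LPS day 1 replicate 4, at -0.21 without LPS day 7 replicate 1 and at -0.09 with library totals. Tgtp1 and Tgtp2 are also near copies, with log2 changes of -3.72 and -3.06.

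Promoters of interferon-induced genes are known to carry the interferon-stimulated response element (ISRE), a site read by Stat2 and Irf9. It was searched as GAAA repeated after a gap of any 2 bases, on both strands with overlaps allowed, in windows of 300 bases around the RefSeq start (GRCm38.p6). Of 25 interferon effectors with a window, 14 held a match, as did 12 of 13 GBP and IRG genes (92.3%). Among all 27025 genes with a window 1079 held one (3.99%), and among 11161 tested genes with a window 433 (3.88%). Of the genes called at least 2-fold lower at day 7, 103 of 998 with a window held one (10.3%), against 62 of 1553 genes called at least 2-fold higher (3.99%). The 200 bases before the start are shown for 4 genes whose values are given above, with matches in capitals. A match shows letters and no more.
Ifit3, chr19:34583329-34583528, plus strand: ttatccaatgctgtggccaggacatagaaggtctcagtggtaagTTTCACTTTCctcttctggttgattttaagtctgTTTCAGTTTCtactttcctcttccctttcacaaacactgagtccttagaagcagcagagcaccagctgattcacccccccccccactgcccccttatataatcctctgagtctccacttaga
Isg15, chr4:156200819-156201018, minus strand: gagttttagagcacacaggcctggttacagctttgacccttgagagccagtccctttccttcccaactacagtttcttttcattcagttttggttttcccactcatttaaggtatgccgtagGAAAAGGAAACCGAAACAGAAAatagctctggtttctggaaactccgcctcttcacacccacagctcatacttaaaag
Gbp2, chr3:142620463-142620662, plus strand: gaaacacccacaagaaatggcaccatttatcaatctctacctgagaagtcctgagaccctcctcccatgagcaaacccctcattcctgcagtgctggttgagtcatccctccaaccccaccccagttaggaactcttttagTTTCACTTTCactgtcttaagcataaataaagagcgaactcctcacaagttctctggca
Irgm1, chr11:48871421-48871620, minus strand: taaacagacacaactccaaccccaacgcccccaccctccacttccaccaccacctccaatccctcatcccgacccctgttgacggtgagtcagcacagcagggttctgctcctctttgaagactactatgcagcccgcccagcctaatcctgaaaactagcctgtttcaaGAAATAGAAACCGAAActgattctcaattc
The Isg15 window holds 3 overlapping matches, that of Ifit3 holds 2 apart from each other, that of Irgm1 holds 2 that overlap, and that of Gbp2 holds 1, at position -59 relative to the start.

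Antigen presentation by class I molecules, which show peptides of the cell's own proteins to T cells, also fell. Of 22 tested genes 21 were lower and none higher, with a median log2 change of -1.42. Tapbp (tapasin), which loads peptides, had 89.1, 88.5, 88.3 and 82.5 CPM at day 7 against 478, 389, 426 and 411 CPM at day 1 (log2 change -2.29 ± 0.06, SE; edgeR adjusted p = 8.21e-18). Tap1, a peptide transporter, stood at 15.9 to 22.5 CPM and 212 to 307 CPM. The immunoproteasome subunits Psmb8, Psmb9 and Psmb10 fell, with log2 changes of -2.55, -2.09 and -2.39. Class I heavy chains fell less. H2-K1 had 227, 293, 334 and 249.4 CPM at day 7 against 490, 433, 503 and 432 CPM at day 1, while its baseline mean was 106 CPM. Heavy chain genes are close relatives, and the division of reads between them is uncertain.

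Class II genes went the other way. They present material taken up from outside the cell and are expressed by dendritic cells, B cells and some macrophages. Of 9 tested members 8 were higher and none lower, with a median log2 change of 1.98, and H2-DMb2 was at 0.63 and not called. H2-Eb1 stood at 35.1, 55.7, 45.5 and 50.4 CPM at day 7 against 5.51, 8.32, 5.38 and 4.24 CPM at day 1 (log2 change 3.01 ± 0.16, SE; edgeR adjusted p = 4.01e-13). H2-Aa had 30.5 to 50.2 CPM against 4.93 to 10.3 CPM, and Cd74, the chaperone of class II, 106 to 181 CPM against 27.3 to 53.2 CPM. Day 7 replicate 2 was the highest in all of these. Ciita, the activator of class II transcription, rose by 1.30 on the log2 scale. Of 7 tested dendritic cell genes Ccr7, Batf3 and Xcr1 fell, with log2 changes of -3.06, -1.52 and -1.29 (the last call lost at -1.05 without day 1 replicates 3 and 4), and Itgax, an integrin chain that other myeloid cells also express, rose by 3.85.

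The machinery of endotoxin sensing and NF-kB was lower at day 7. Of 32 genes tested 25 fell and 2 rose, with a median log2 change of -0.85. All 11 feedback inhibitors fell. Nfkbia, the inhibitor that holds NF-kB in the cytoplasm, had 27.0, 33.2, 28.4 and 32.5 CPM at day 7 against 145, 161, 113 and 109 CPM at day 1 (log2 change -2.12 ± 0.14, SE; edgeR adjusted p = 8.15e-12). Zc3h12a, a ribonuclease that degrades cytokine messages, stood at 4.505 to 5.51 CPM and 27.97 to 44.3 CPM, and Nfkbiz at 1.59 to 2.63 CPM and 25.5 to 45.3 CPM. Irak2, a kinase of the receptor complex, had 8.17, 6.80, 7.61 and 6.38 CPM at day 7 and 36.5, 43.5, 37.6 and 35.6 CPM at day 1. Lbp, LPS-binding protein, fell by 2.42 and Myd88 fell by 2.28 on the log2 scale. The receptor genes moved less. Tlr4 had 6.70, 8.52, 10.3 and 8.79 CPM at day 7 against 11.1, 10.7, 13.5 and 13.1 CPM at day 1 (log2 change -0.49 ± 0.14, SE; not called at -0.31 with library totals or at -0.34 without day 1 replicates 3 and 4), and Cd14 4.25 to 4.94 CPM against 7.59 to 9.07 CPM. The members that rose were Ticam2, an adaptor of the interferon branch, at 0.713 to 1.24 CPM against 0.248 to 0.308 CPM, and Nfkb1, at 43.9 to 46.5 CPM against 38.7 to 41.7 CPM. The call of Nfkb1 was lost at 0.15 without day 1 replicate 3 and at 0.16 without day 7 replicate 3.

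Of the 26 chemokine genes tested 17 fell and 6 rose. Of the 12 CXC and CX3C genes 10 were lower, including Cxcl9, which attracts T cells, at 4.74, 7.73, 10.7 and 7.99 CPM at day 7 against 334, 235, 223 and 179 CPM at day 1 (log2 change -4.95 ± 0.21, SE; edgeR adjusted p = 3.85e-15). Cxcl10 stood at 0.858 to 1.36 CPM at day 7 and at 78.9, 65.9, 15.0 and 26.3 CPM at day 1, with replicates 1 and 2 again the higher pair. Ccl2, which attracts monocytes, showed the same division, at 0.642 to 1.51 CPM against 15.4, 15.5, 6.08 and 7.01 CPM. The neutrophil attractants Cxcl1, Cxcl2 and Cxcl5 fell, with log2 changes of -4.83, -5.03 and -4.99. Cxcl12, a homeostatic chemokine that holds leukocytes and progenitors in tissue, was higher at day 7, at 202, 202, 173 and 206 CPM against 62.4, 52.004, 65.02 and 67.4 CPM at day 1 (log2 change 1.66 ± 0.09, SE). Ccl21a, Ccl6, Ccl24, Ccl12 and Ccl9 were the other members that rose, by 1.87, 2.81, 2.62, 1.70 and 0.48. The call of Ccl9 was lost without any single one of day 1 replicates 3 and 4 (0.37 and 0.33) or day 7 replicates 1, 2 and 4 (0.47, 0.47 and 0.42). It was also lost at 0.03 with effective-length offsets, at 0.27 on log2(TPM + 0.1) and at 0.21 on log2(TPM + 1). Without both day 1 replicates 3 and 4 Ccl9 was at 0.12, and with the compared groups fitted alone at 0.48, neither called.

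In the IL-6 family 11 of 17 genes fell and 2 rose. Stat3, the factor that carries the IL-6 signal, had 122, 115, 115 and 110 CPM at day 7 against 494, 503, 475 and 430 CPM at day 1 (log2 change -2.04 ± 0.07, SE; edgeR adjusted p = 3.41e-16). Socs3, its feedback inhibitor, stood at 4.46 to 6.29 CPM and 22.97 to 83.9 CPM, and the oncostatin M receptor Osmr at 12.1 to 14.4 CPM and 71.7 to 122 CPM. Il6 itself was low throughout, with 3 reads over the day 7 libraries and 88 over the day 1 libraries, a ratio of 0.0372 (95% counting interval 0.00752 to 0.112). Lifr and Il11ra1, receptors of other family members, rose by 0.93 and 0.47 on the log2 scale. Of 18 IL-1, TNF and inflammasome genes 13 fell and 3 rose. Il18bp, a decoy that neutralises IL-18, had 4.74, 5.93, 6.18 and 6.30 CPM at day 7 against 57.3, 57.2, 48.6 and 56.4 CPM at day 1. Tnf stood at 0.241 to 0.408 CPM and 1.32 to 2.19 CPM, Tnfrsf1a at 44.1 to 49.6 CPM and 118 to 183 CPM, and Il1b was too low to test. Pycard, the inflammasome adaptor, and Il1rl1, the receptor of IL-33, rose by 1.23 and 1.62.

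Complement genes moved in both directions. Cfb and C2, which form the enzymes that cut C3, had log2 changes of -4.39 and -1.995, and C3 itself fell by 1.05. For C1ra, C1s1 and Masp1, proteases that start the cascade, the log2 changes were -2.004, -0.89 and -2.24. Cfb had 3.55 to 6.11 CPM at day 7 and 70.3 to 133 CPM at day 1. The C1q chains C1qa, C1qb and C1qc, made mainly by macrophages, rose by 1.86, 1.06 and 2.31. C3ar1, a receptor for a fragment of C3, stood at 9.60, 8.97, 9.93 and 7.83 CPM at day 7 against 1.04, 1.15, 1.66 and 1.20 CPM at day 1. In all, 8 of the 18 tested genes rose and 7 fell.

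Neutrophil genes were lower at day 7. Of 22 neutrophil genes listed 17 were tested. Of these 15 fell and none rose, with a median log2 change of -3.77. Members with hardly any reads at day 7 could pass the count filter only through groups where they were higher, such as day 1. The 10 defining markers summed to 3.45 to 5.63 CPM at day 7 and 43.6 to 51.1 CPM at day 1, scaled by library totals. Ly6g and Cd177 were at 0 in every day 7 library, and Ly6g also in day 1 replicate 1. Ngp, a granule protein, had 0.0751 to 0.245 CPM at day 7 and 3.80 to 8.07 CPM at day 1. S100a8 stood at 0.613, 0.113, 0.175 and 0.0803 CPM against 2.42, 2.89, 2.28 and 1.44 CPM. Hdc, which makes histamine, fell to 1.65 to 2.14 CPM at day 7, against 33.9 to 38.4 CPM at day 1. Hdc alone made up most of the day 1 sum of the defining markers. Lcn2 is on this list as well and is also made by other cells of inflamed tissue.

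Monocyte and inflammatory macrophage genes were mixed, 13 of 21 lower and 5 higher. Chil3, Plac8 and Clec4e fell, with log2 changes of -5.69, -3.34 and -5.50, each from low counts. Ccr2, the receptor by which monocytes enter tissue, rose, with 2.12, 3.08, 3.26 and 2.49 CPM at day 7 against 0.0372, 0.448, 0.166 and 0.205 CPM at day 1. Genes of phagocytes in repair, Trem2, Spp1 and Gpnmb, also rose, by 2.29, 2.86 and 1.60. Spp1 (osteopontin) was uneven, at 4.49, 0.451, 0.456 and 2.61 CPM at day 7, and so was Gpnmb, at 11.6, 0.976, 1.37 and 9.63 CPM, where replicates 2 and 3 lay below the day 1 range of 1.49 to 2.48 CPM. The call of Gpnmb was lost at 1.03 without day 7 replicate 1, at 1.25 without day 7 replicate 4, at 1.49 to 1.60 without day 1 replicate 1, 2 or 4, and at 0.81 with limma-voom.

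Resident macrophage genes were higher at day 7 in 19 of 21 cases and lower in 1, with a median log2 change of 1.86. Cx3cr1, the fractalkine receptor, showed the largest rise of any gene named by the rule, at 6.09, 8.63, 8.91 and 7.63 CPM at day 7 against 3 reads in all of day 1. The ratio was 299 (95% counting interval 102 to 1450). Mrc1, the mannose receptor, had 33.0, 30.9, 38.7 and 32.3 CPM at day 7 and 2.79, 4.18, 4.30 and 3.73 CPM at day 1 (log2 change 3.18 ± 0.21, SE; edgeR adjusted p = 1.33e-11). F13a1, coagulation factor XIII, stood at 29.3 to 34.4 CPM and 2.75 to 5.26 CPM, and the haemoglobin scavenger receptor Cd163 at 17.4 to 21.1 CPM and 1.90 to 3.97 CPM. Fcrls rose by 5.20. Lyve1, a marker of a macrophage subset and of lymphatic vessels, fell to 9.69 to 15.2 CPM at day 7, against 22.8 to 26.4 CPM at day 1. Siglec1 was at 0.34 and not called.

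Lymphocyte genes rose from very low levels. Of 17 natural killer and cytotoxic genes listed 11 were tested. Of these 10 were higher and 1, the chemokine Ccl5, was lower. Il2rb, a receptor chain for interleukins 2 and 15, had 6.78, 6.95, 6.18 and 5.98 CPM at day 7 against 1.38, 1.74, 0.828 and 1.09 CPM at day 1 (log2 change 2.37 ± 0.24, SE; edgeR adjusted p = 1.35e-08). Gzma, a granzyme, stood at 4.66, 4.35, 4.00 and 2.89 CPM and 0.207 to 0.513 CPM, and Ncr1, an activating receptor specific to these cells, at 0.562 to 1.28 CPM and 0 to 0.124 CPM. Ccl5 had 3.59 to 5.58 CPM against 20.5 to 33.5 CPM. Of 19 T cell genes listed 12 were tested, of which 11 rose and none fell. Lymphocyte genes with hardly any reads at day 1 could pass the count filter only through groups where they were higher. The counts for these lists therefore lean toward rises. Cd3e had 0.163, 0.601, 0.421 and 0.361 CPM at day 7 and 0, 0, 0.0414 and 0.103 CPM at day 1, and Cd28 2.37 to 2.77 CPM and 0.548 to 1.27 CPM. Of 7 B cell genes 5 rose, with the IgM chain Ighm at 6.78 to 10.9 CPM against 0.448 to 1.12 CPM, while Cd79a and Cd79b were not called and Ms4a1 was too low to test.

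Mitosis genes were among the most uniform lists, 28 of 29 higher and none lower, with a median log2 change of 2.75. Mki67, expressed in dividing cells, had 7.39, 22.1, 29.9 and 14.1 CPM at day 7 against 0.893, 0.897, 2.73 and 1.09 CPM at day 1 (log2 change 3.71 ± 0.56, SE; edgeR adjusted p = 4.61e-06). Top2a, a topoisomerase, stood at 3.72, 7.66, 12.8 and 5.90 CPM and 0.398 to 1.08 CPM, and Racgap1, needed for cell division, at 2.41, 4.24, 6.39 and 3.29 CPM and 0.558 to 0.911 CPM. In each, replicate 3 was the highest and replicate 1 the lowest of the day 7 libraries. Kif4 and Kif23, motors of the spindle, rose by 2.74 and 3.14, and Aurka was at 0.60 and not called, though called at 0.89 without day 7 replicate 1. Genes of DNA replication moved less, 13 of 26 higher and 1 lower. Mcm2, a subunit of the replicative helicase, had 8.48 to 13.02 CPM against 3.14 to 5.55 CPM, Mcm3, Mcm4, Mcm6 and Mcm7 were not called, and Gins1 fell by 2.15. Mcm3 was called higher at 0.53 with effective-length offsets, at 0.75 on log2(TPM + 0.1), at 0.59 on log2(TPM + 1) and at 0.68 without day 1 replicates 1 and 2. Mcm6 was called lower at -0.39 by DESeq2, at -0.37 by limma-voom or with the compared groups fitted alone, at -0.43 without day 1 replicate 3 or 4, at -0.54 without both and at -0.52 without day 7 replicate 3, and Mcm7 higher at 0.42 with library totals.

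Collagens rose in 20 of 24 cases and fell in 2, with a median log2 change of 1.77. Col6a6 stood at 16.7, 15.5, 15.2 and 14.8 CPM at day 7 against 0.930, 0.996, 0.455 and 0.684 CPM at day 1 (log2 change 4.35 ± 0.23, SE; edgeR adjusted p = 1.78e-13). Col15a1, a basement membrane collagen, had 194 to 238 CPM and 30.1 to 45.3 CPM. The main fibrillar chains Col1a1 and Col3a1 rose by 1.69 and 1.85, with Col1a1 at 237, 265, 268 and 250 CPM at day 7 and 61.3, 45.6, 122 and 87.5 CPM at day 1. The chains of the common basement membrane collagen went the other way. Col4a1 stood at 652, 912, 971 and 756 CPM at day 7 against 1940, 1962, 2014 and 1704 CPM at day 1, and Col4a2 at 561 to 736 CPM against 1396 to 1634 CPM. Genes of activated fibroblasts were divided, 9 of 20 higher and 5 lower. Lox, which crosslinks collagen, had 4.29, 4.39, 3.79 and 3.93 CPM at day 7 against 56.4, 60.02, 63.7 and 53.8 CPM at day 1, and Timp1, a protease inhibitor, 1.16 to 1.72 CPM against 22.3 to 39.1 CPM. Loxl2, a relative of Lox, rose, at 31.0 to 39.4 CPM against 7.52 to 15.3 CPM. The matricellular gene Postn was at 0.65 ± 0.56 (SE) and not called, though called at 0.66 with the compared groups fitted alone. Among matrix proteases 12 of 22 genes fell and 5 rose. Mmp3 had 0.982 to 1.61 CPM against 25.4 to 35.3 CPM, while the membrane-bound Mmp15 had 217, 209, 223 and 193 CPM at day 7 against 19.3, 14.8, 30.05 and 29.7 CPM at day 1.

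Genes of the vessel wall divided. Icam1, a ligand of leukocyte integrins, had 11.5, 10.96, 14.9 and 12.1 CPM at day 7 against 116, 112, 91.7 and 114 CPM at day 1 (log2 change -3.13 ± 0.16, SE; edgeR adjusted p = 1.80e-13). Selp (P-selectin) stood at 0.601 to 0.843 CPM and at 33.3, 34.9, 13.5 and 17.8 CPM, and Vcam1 fell by 1.22 on the log2 scale. Of the 11 adhesion genes tested 6 fell and 5 rose, the last including Jam2 and Podxl. Aplnr, the apelin receptor, was higher at day 7, at 44.8, 63.6, 62.2 and 47.4 CPM against 1.79, 1.69, 1.49 and 0.992 CPM at day 1 (log2 change 5.21 ± 0.27, SE). Vwf, von Willebrand factor, stood at 82.4 to 100.4 CPM and 31.7 to 41.9 CPM. The pan-endothelial genes Pecam1, Tie1, Egfl7 and Emcn were at 0.11, -0.18, -0.10 and 0.14 and not called, though Pecam1 and Emcn were called higher with library totals, at 0.28 and 0.33. Pecam1 was also called at 0.16 without day 7 replicate 1, and Tie1 was called lower at -0.23 without day 1 replicate 3 or day 7 replicate 2 and at -0.25 without day 1 replicate 4. Egfl7 was called lower at -0.12 by DESeq2 and at -0.21 with effective-length offsets. Cdh5 rose by 0.36. Cldn5, a tight junction protein, was at -0.65 and called lower, a call lost at -0.45 without day 1 replicate 2, at -0.52 without day 7 replicate 1 and at -0.45 with library totals. In all 10 of 23 endothelial genes rose and 6 fell. Pericyte and smooth muscle genes rose in 14 of 18 cases and fell in 1. Notch3, a receptor of mural cells, had 92.8, 99.9, 102 and 100.2 CPM at day 7 against 24.7, 22.2, 31.7 and 30.3 CPM at day 1. Schwann cell and nerve genes rose in 11 of 14 cases and fell in 2.

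Potassium channels that end the action potential were higher at day 7 in 15 of 17 cases and lower in none, with a median log2 change of 1.03. Kcnip2, a partner of the fast transient outward channel, had 145, 135, 120 and 147 CPM at day 7 against 54.8, 58.2, 36.8 and 38.4 CPM at day 1 (log2 change 1.54 ± 0.12, SE; edgeR adjusted p = 1.14e-10). Kcnk3, a background channel, stood at 342 to 403 CPM and 82.2 to 151 CPM, and Kcnj5, a channel opened by acetylcholine in atria, at 56.8 to 70.6 CPM and 15.5 to 25.4 CPM. Abcc9, the regulatory chain of the ATP-sensitive channel in heart and vessels, had 361 to 407 CPM and 116 to 150 CPM. Kcnq1 and Kcna5 were at 0.17 and 0.05 and not called with TMM, and at 0.35 and 0.23 and called with library totals, and Kcnq1 was called at 0.29 without day 1 replicate 3. Within the sodium, pacemaker and gap junction list 8 of 18 genes rose and 5 fell. The gap junction gene Gja1 was higher at day 7, at 317 to 356 CPM against 119 to 219 CPM at day 1. The pacemaker channel gene Hcn4 stood at 14.5 to 18.2 CPM at day 7 and 3.94 to 5.71 CPM at day 1.

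**Figure D3:**
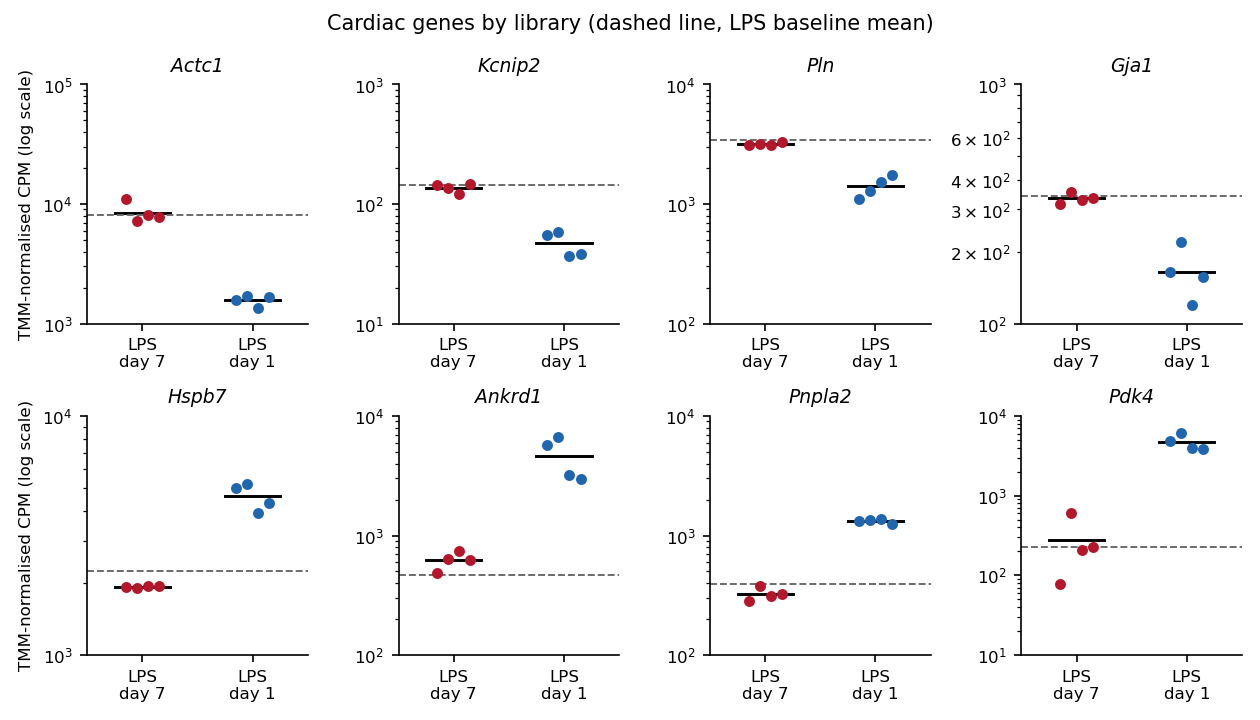
TMM-normalised CPM (log scale) of 8 cardiac genes in each LPS day 7 and LPS day 1 library, with group means as bars and the LPS baseline mean as a dashed line. Actc1, Kcnip2, Pln and Gja1 were higher in every day 7 library than in any day 1 library, and Hspb7, Ankrd1, Pnpla2 and Pdk4 were lower.

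Of 22 calcium handling genes 13 rose and 2 fell. Pln (phospholamban), the brake on the calcium pump of the sarcoplasmic reticulum, had 3130, 3187, 3093 and 3328 CPM at day 7 against 1112, 1280, 1541 and 1733 CPM at day 1 (log2 change 1.17 ± 0.12, SE; edgeR adjusted p = 1.49e-08). The pump itself, Atp2a2, was at 0.18 ± 0.09 (SE) and the release channel Ryr2 at 0.10 ± 0.08 (SE), neither called with TMM, and both called higher with library totals, at 0.37 and 0.29. Atp2a2 was also called at 0.22 without day 1 replicate 4. Cacnb2, a subunit of the L-type channel, stood at 57.7 to 63.6 CPM and 11.4 to 20.04 CPM. Camk2d, the main cardiac calmodulin kinase, fell to 109.8 to 117 CPM at day 7, against 154 to 227 CPM at day 1.

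Sarcomere genes moved little as a list, 9 of 27 higher and 3 lower, with a median log2 change of 0.19. Actc1, cardiac alpha-actin, stood at 10956, 7182, 8033 and 7744 CPM at day 7 against 1579, 1692, 1360 and 1667 CPM at day 1 (log2 change 2.43 ± 0.13, SE; edgeR adjusted p = 2.99e-13). Mybpc3, a myosin-binding protein, had 3625 to 3970 CPM and 1809 to 2293 CPM, and Myh6 rose by 0.49. Among stress and fetal-type genes 10 of 20 fell and 1 rose. Ankrd1, a stretch-responsive repressor, stood at 482, 642, 737 and 619 CPM at day 7 and at 5714, 6674, 3229 and 2990 CPM at day 1. Hspb7 had 1898 to 1950 CPM and 3920 to 5190 CPM, and Fhl1 69.4 to 74.0 CPM and 144 to 310 CPM. Fhl2 was the member that rose, at 934 to 1207 CPM against 290 to 511 CPM. The natriuretic peptide genes Nppa and Nppb and the fetal myosin Myh7 were at -0.07, -0.58 and 0.32 and were not called. Receptor and cAMP genes rose in 18 of 28 cases and fell in 4. Adcy5, a main cardiac adenylyl cyclase, had 137 to 170 CPM at day 7 and 69.9 to 87.8 CPM at day 1, Adrb1 rose by 0.94, and the receptor kinases Grk3 and Grk5 fell, with log2 changes of -0.77 and -0.64.

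Genes for lipid use were lower at day 7 more often than higher. Of 37 fatty acid genes 22 fell and 2 rose with TMM, with a median log2 change of -0.36. With library totals 18 fell and 10 rose, with a median of -0.17. Under TMM 9 of 13 uptake and storage genes fell and 1 rose, with a median of -0.89. Of 24 oxidation genes 13 fell and 1 rose, with a median of -0.275. Pnpla2, the first lipase of triglyceride breakdown, had 285, 376, 312 and 327 CPM at day 7 against 1318, 1348, 1365 and 1256 CPM at day 1 (log2 change -2.02 ± 0.08, SE; edgeR adjusted p = 2.00e-15). Plin2, which coats lipid droplets, stood at 37.2 to 50.2 CPM and 186 to 253 CPM, and Cd36, a fatty acid carrier, at 726 to 859 CPM and 1424 to 1756 CPM. Angptl4, Ucp3 and the glucose-sparing kinase Pdk4, all known targets of fatty acid receptors, fell, with log2 changes of -5.14, -2.50 and -4.08. Their day 7 values were uneven, with Pdk4 at 77.4, 599, 209 and 228 CPM against 4874, 6118, 3923 and 3883 CPM at day 1, and replicate 2 the highest for all of them. Cpt1b, which admits fatty acids to mitochondria, rose by 0.31.

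Glucose genes moved in both directions. Slc2a4, the insulin-sensitive transporter GLUT4, had 302 to 356 CPM at day 7 and 121 to 156 CPM at day 1, while the general transporter Slc2a1 fell by 0.79. Pfkfb3, an inducible activator of glycolysis, stood at 10.0, 10.9, 12.2 and 11.9 CPM at day 7 against 134, 118, 84.3 and 112 CPM at day 1 (log2 change -3.31 ± 0.15, SE; edgeR adjusted p = 2.04e-14), and the cardiac form Pfkfb2 rose by 1.88. In all 15 of 29 rose and 8 fell. Esrrg and Esrra, nuclear receptors that drive mitochondrial genes, rose by 1.95 and 1.30, and Ppargc1a rose by 0.59, at 80.8 to 92.1 CPM against 40.6, 27.8, 75.7 and 80.2 CPM, where the lower pair at day 1 was replicates 1 and 2. Its call was lost at 0.46 without day 1 replicate 1 and at 0.12 without both. Nuclear genes of the respiratory chain had 4 of 52 higher and 11 lower with TMM, with a median of -0.05, and 33 higher and 2 lower with library totals, so that their direction depends on scaling. Citric acid cycle genes likewise had 5 of 19 higher and 4 lower with TMM and 13 higher and 2 lower with library totals. Of 13 mitochondrially encoded genes 8 were called lower under TMM and 4 under library totals. Acod1, which makes itaconate in activated macrophages, stood at 0.140 to 0.245 CPM and 6.54 to 11.6 CPM.

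Proteasome and cytosolic ribosomal protein genes were lower at day 7. All but 1 of 32 proteasome genes fell, with a median log2 change of -0.68. Psmd3, a subunit of the regulatory particle, had 115, 112, 118 and 117 CPM at day 7 against 238, 229, 225 and 233 CPM at day 1 (log2 change -1.004 ± 0.05, SE; edgeR adjusted p = 3.12e-14). Psmc4 and Psmc1, ATPases of that particle, fell, with log2 changes of -0.98 and -0.99, and Psme4 was at -0.01 and not called, with a sign that turned with the day 1 pair used, at -0.23 without replicates 1 and 2 and 0.25 without replicates 3 and 4. Of 40 cytosolic ribosomal protein genes 38 fell and none rose, with a median of -0.47, and Rps6 stood at 108 to 122 CPM and 174 to 227 CPM. With library totals 33 of them were lower and 1 higher, with a median of -0.27, and on log2(TPM + 0.1) 25 were lower and 1 higher, with a median of -0.23. Of 28 mitochondrial ribosomal protein genes 12 were higher and 5 lower, with a median of 0.14. Rpl3l, a form found in heart and skeletal muscle, was at 0.17 and not called, but called at 0.36 with library totals and at 0.28 without day 1 replicate 2. Chaperones of the heat shock class fell in 13 of 23 cases and rose in 6. Bag3, which clears damaged filament proteins in muscle, had 282 to 318 CPM at day 7 and 521 to 705 CPM at day 1, while Hsph1 rose by 1.04 and its regulator Hsf1 by 0.71. Stress genes of the endoplasmic reticulum fell in 12 of 25 cases and rose in 3, and on log2(TPM + 0.1) in 7 and 4 with the median turning positive, at 0.06. Atf4, the main factor of the integrated stress response, stood at 42.8 to 50.6 CPM at day 7 and at 117, 136, 70.9 and 78.1 CPM at day 1. Its target Asns fell by 1.65, while Hspa5, a chaperone of that compartment, was at -0.04 and not called.

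Antioxidant genes under the factor NRF2 fell in 21 of 26 cases and rose in none, with a median log2 change of -0.70. Gclm, a subunit of the enzyme that starts glutathione synthesis, had 14.4, 20.9, 19.6 and 21.2 CPM at day 7 against 76.7, 62.6, 56.2 and 55.7 CPM at day 1 (log2 change -1.72 ± 0.16, SE; edgeR adjusted p = 2.47e-09). Slc7a11, a cystine carrier, had 3 reads over the day 7 libraries and 267 over the day 1 libraries, a ratio of 0.0123 (95% counting interval 0.00251 to 0.0362). Hmox1, which breaks down haem, stood at 7.11 to 9.96 CPM at day 7 and at 123, 99.5, 30.4 and 33.2 CPM at day 1, again with replicates 1 and 2 the higher pair. Autophagy and lysosome genes fell in 19 of 27 cases and rose in 4. Map1lc3b, a coat protein of autophagosomes, had 139, 152, 144 and 147 CPM at day 7 against 398, 361, 412 and 338 CPM at day 1, and the muscle ubiquitin ligases Fbxo32 and Trim63 fell, with log2 changes of -1.43 and -1.17. The protease gene Ctsc, active in immune granules, rose by 1.13.

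Immediate early genes were lower in 16 of 25 cases and higher in 2. Junb had 17.02 to 20.6 CPM at day 7 and 47.8 to 137 CPM at day 1, Myc 2.81 to 3.72 CPM and 11.01 to 31.2 CPM, and Batf2, an interferon-induced member of the AP-1 family, 0.883 to 1.35 CPM and 11.5 to 17.2 CPM. Jun and Nr4a2 rose by 0.37 and 0.76, with libraries of the groups overlapping. The call of Jun was lost at 0.31 without day 1 replicate 3 and at 0.29 without day 7 replicate 3, and that of Nr4a2 at 0.63 and 0.65 without day 1 replicate 2 or 3 and at 0.65 without day 7 replicate 2. Fosl1, another AP-1 member, had no read at day 7 and 204 reads at day 1, at least 62.4-fold lower on the floor of 3 counts over the group, and its day 1 replicates stood at 3.27, 3.64, 0.704 and 0.889 CPM.

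Genes known to respond to glucocorticoids fell in 17 of 19 cases, some of which, such as Lcn2 and Mt2, respond to cytokines as well. Cdkn1a (p21), a brake on the cell cycle, had 12.6, 16.4, 16.5 and 10.6 CPM at day 7 against 363, 430, 309 and 286 CPM at day 1 (log2 change -4.62 ± 0.21, SE; edgeR adjusted p = 1.75e-14). Fkbp5, which restrains the glucocorticoid receptor, stood at 12.2 to 32.5 CPM and 269 to 320 CPM, and Hsd11b1, which regenerates active hormone, at 2.55 to 4.82 CPM and 18.9 to 30.8 CPM. The receptor genes Nr3c1 and Nr3c2 rose by 0.60 and 1.28. Clock genes split, 7 of 20 higher and 8 lower with TMM and 8 higher and 7 lower with library totals. Dbp, an output of the clock, had 139, 70.8, 111 and 120 CPM at day 7 against 20.3, 17.7, 12.0 and 20.5 CPM at day 1 (log2 change 2.64 ± 0.25, SE). Arntl, of the clock's activating arm, was lower, at 4.74, 8.71, 4.98 and 3.73 CPM against 14.3, 12.7, 15.9 and 10.4 CPM, and so was Per1, by 2.21. The hour at which hearts were taken is not given in the labels, and its part in these values was not tested.

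Smaller lists held genes of both directions. Among iron genes 8 of 18 rose and 6 fell. Transferrin (Trf), the iron carrier of plasma, had 28.2, 30.2, 29.6 and 26.6 CPM at day 7 against 6.06, 6.18, 6.79 and 5.16 CPM at day 1 (log2 change 2.25 ± 0.12, SE; edgeR adjusted p = 3.49e-13). The ferritin heavy chain Fth1, which stores iron, stood at 1258 to 1389 CPM at day 7 and 1926 to 2573 CPM at day 1. Among coagulation genes 5 of 17 rose and 8 fell. Plaur, the urokinase receptor, had 2.21, 1.58, 2.25 and 1.97 CPM at day 7 against 26.04, 35.3, 16.4 and 19.4 CPM at day 1, and Serpine2, a protease inhibitor, fell by 1.20. Nitric oxide and arginine genes had 7 of 17 higher and 8 lower with TMM, and 8 higher and 5 lower with library totals. The subunits of the nitric oxide receptor, Gucy1a1 and Gucy1b1, rose by 1.505 and 1.403, while the arginine carrier Slc7a2 and the polyamine enzyme Odc1 had log2 changes of -2.05 and -1.14. Among genes of mitochondrial control, the fusion gene Mfn1 rose by 0.77 and the lipid receptor Pparg fell by 0.74.

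Further genes with the largest rises have no list of their own. B3galt2, a galactosyltransferase, had 5.43, 6.46, 7.05 and 7.02 CPM at day 7 against 0.223, 0.0498, 0.166 and 0.0684 CPM at day 1 (log2 change 5.60 ± 0.27, SE; edgeR adjusted p = 6.43e-14). The matrix gene Papln, the cadherin Cdh23, the prion-like Prnd, the membrane protein gene Tmem255b and the secreted Spon2 rose by 4.68, 4.66, 4.60, 4.52 and 4.503. B3galt2, Cdh23, Tmem255b and Spon2 had baseline means of 7.53, 10.1, 4.39 and 6.69 CPM and were not called between day 7 and baseline, so that day 1 was the lowest of the LPS groups for each.

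**Figure D4:**
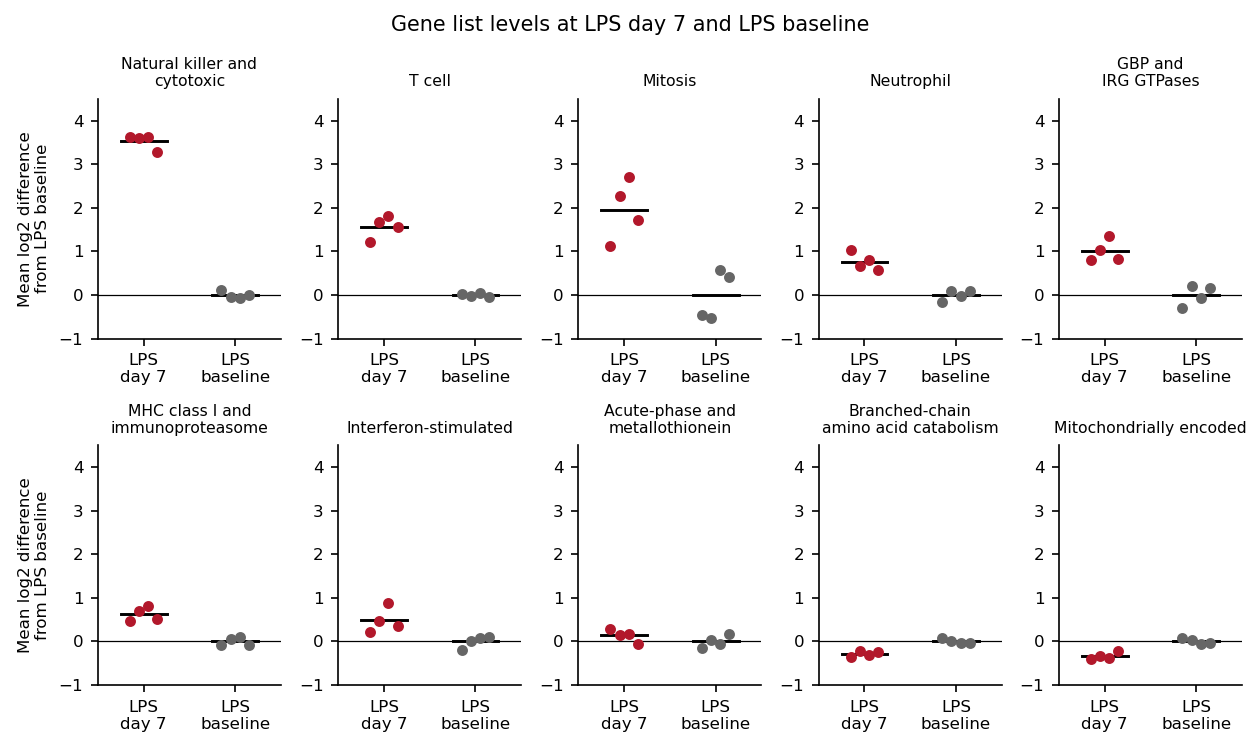
Mean log2 difference of each LPS day 7 library and each LPS baseline library from the baseline mean over the tested members of 10 gene lists, with group means as bars. Natural killer, T cell and mitosis lists lay highest above baseline at day 7, and branched-chain amino acid and mitochondrially encoded lists lay below it.

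Hearts at day 7 still differed from untreated hearts. Between LPS day 7 and LPS baseline 1431 of 15732 genes (9.10%) were called, 938 (5.96%) higher and 493 (3.13%) lower at day 7, and 374 (2.38%) differed at least 2-fold. This count rests on single libraries more than the day 7 against day 1 count does, falling to 621 without LPS day 7 replicate 3, to 774 without baseline replicate 1 and to 761 without baseline replicate 2. The split depends on scaling, at 2421 higher and 90 lower with library totals and 2035 higher and 44 lower on log2(TPM + 0.1).

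Natural killer, T cell, mitosis and antigen-presentation genes were above baseline at day 7. All 11 natural killer and cytotoxic genes tested and 8 of 12 T cell genes tested were higher than at baseline. Their medians were 4.77 and 2.43 on the log2 scale. These lists hold 17 and 19 genes, and the rest were too low to test. Members with hardly any reads at baseline could pass the count filter only through groups where they were higher. The counts and medians of these lists therefore lean toward genes high at day 7. Il2rb stood at 6.78, 6.95, 6.18 and 5.98 CPM at day 7 against 0.507, 0.382, 0.632 and 0.356 CPM at baseline (log2 difference 3.77 ± 0.27, SE; edgeR adjusted p = 1.03e-08). Gzma had 2.89 to 4.66 CPM at day 7 and 0 to 0.109 CPM at baseline. Of 7 B cell genes 1, Ighm, was higher than at baseline, by 0.98, with a median log2 difference of 0.19. Mitosis genes were higher in 27 of 29 cases, and 17 without LPS day 7 replicate 3, the library with the highest Mki67, and DNA replication genes in 14 of 26 cases, and 5 without that library. Mki67 had baseline values of 2.57, 1.34, 4.54 and 4.35 CPM, against 7.39 to 29.9 CPM at day 7, and Top2a 0.326 to 2.05 CPM against 3.72 to 12.8 CPM. Class I genes were higher in 16 of 22 cases and class II genes in 7 of 9. B2m, the light chain of class I, stood at 118 to 131 CPM at baseline, 547 to 651 CPM at day 1 and 223, 298, 359 and 252 CPM at day 7.

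Interferon-stimulated genes were higher than baseline in 16 of 44 cases and GBP and IRG genes in 11 of 22, with none lower. Without LPS day 7 replicate 3 the first of these counts was 4. Irf7 had 36.4, 46.2, 64.3 and 30.1 CPM at day 7 against 8.94, 9.75, 10.5 and 11.5 CPM at baseline (log2 difference 2.12 ± 0.17, SE; edgeR adjusted p = 3.46e-08). Igtp stood at 42.6 to 62.0 CPM and 8.94 to 15.4 CPM. The predicted genes Gm4841 and F830016B08Rik, both among the 10 largest differences from baseline, had log2 differences of 3.64 and 2.60, and BC023105 one of 3.87. Complement genes were higher in 13 of 18 cases, with C1qa at 56.3 to 66.6 CPM at day 7 and 30.4 to 36.7 CPM at baseline. Monocyte genes were higher in 10 of 21 cases, resident macrophage genes in 10 of 21 and neutrophil genes in 7 of 17, with none lower. Without LPS day 7 replicate 3 the last 2 counts were 6, with 1 gene lower, and 4. Ccr2 had 2.12 to 3.26 CPM at day 7 and 0.475 to 0.869 CPM at baseline, and Rac2, a GTPase of blood cells, 6.21 to 8.52 CPM and 1.80 to 2.33 CPM. By contrast none of the 16 acute-phase and metallothionein genes and none of the 24 collagens was called by edgeR against baseline. At an unadjusted edgeR p under 0.05 there were 4 and 6 of them, DESeq2 called 0 and 1, and limma-voom 0 and 2.

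The genes below baseline were fewer and differed less. The mitochondrial ribosomal RNAs mt-Rnr1 and mt-Rnr2 were among the lowest, mt-Rnr1 at 1106, 1586, 1211 and 1639 CPM at day 7 against 3055, 3038, 3078 and 3162 CPM at baseline (log2 difference -1.15 ± 0.12, SE; edgeR adjusted p = 2.27e-06). Both are poorly captured by poly-A selection. Cdkn1a, high at day 1, lay below baseline at day 7, by 1.29 on the log2 scale, with 28.5 to 48.3 CPM at baseline. The clock genes Arntl, Npas2 and Nfil3 had log2 differences of -1.30, -1.07 and -0.81, each called, and Dbp was higher by 1.70. The call of Npas2 was lost at -1.0003 without baseline replicate 1 and at -0.87 without day 7 replicate 4. It was also lost at -1.01 with effective-length offsets, at -0.85 on log2(TPM + 0.1) and at -0.50 on log2(TPM + 1). That of Arntl was lost at -1.12 on log2(TPM + 0.1). Bdh1, which uses ketone bodies, had 22.3, 45.2, 44.1 and 36.1 CPM at day 7 against 69.3, 48.7, 93.8 and 92.7 CPM at baseline. Genes of branched-chain amino acid breakdown were lower in 13 of 22 cases and higher in none, with a median log2 difference of -0.28, and nuclear respiratory chain genes in 13 of 52. With library totals these counts were 4 and 4, and without LPS day 7 replicate 3 they were 5 and 4. Ivd, a dehydrogenase of leucine breakdown, stood at 192 to 250 CPM at day 7 and 320 to 340 CPM at baseline.

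Recovery from LPS was set against recovery from ISO, over the same interval, by testing the difference of the log2 changes. These arms share no library. In the ISO arm 10236 of 15732 genes (65.1%) were called between day 7 and day 1, 5218 (33.2%) higher and 5018 (31.9%) lower. Of the genes higher in LPS recovery 3401 (63.74%) were higher in ISO recovery, which is 65.18% of those higher there, and of the genes lower in LPS recovery 3316 (64.92%) were lower in ISO recovery, which is 66.08%. The log2 changes of the arms differed for 6236 genes (39.6%), 3267 (20.8%) with a more positive change after LPS and 2969 (18.9%) with a more negative one. Changes of opposite sign, each called, numbered 411 genes higher after LPS and lower after ISO and 517 the other way. With library totals the split of the differences was 4088 and 2059, and on log2(TPM + 0.1) it was 4212 and 1386. ISO day 7 replicate 3 stood apart from its group. Its chi-square was 24.45 to 48.34 against the others, and 6.848 to 18.01 among those. Its 4 fibroblast markers summed to 1070 CPM, against 364 to 435 CPM in the others. Leaving this library out gave 6401 called differences, 3405 more positive and 2996 more negative after LPS.

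**Figure D5:**
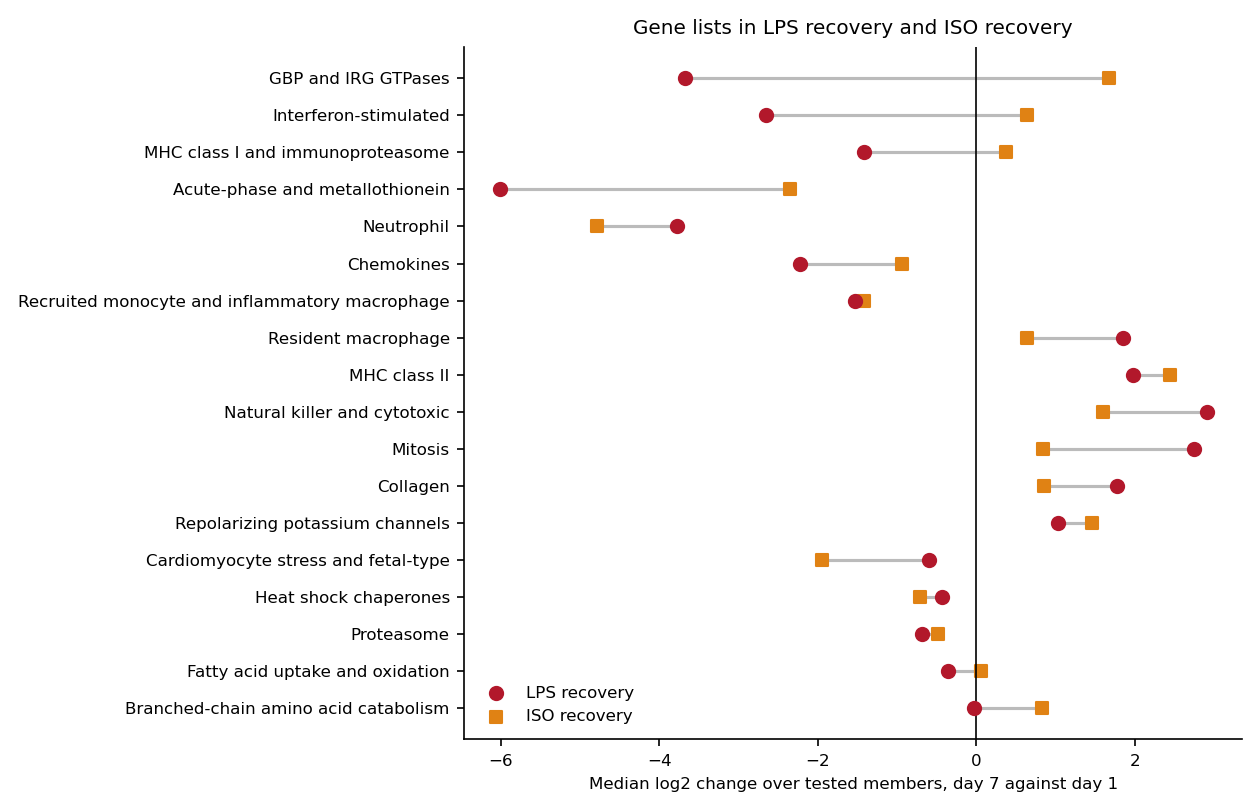
Median log2 change from day 1 to day 7 over the tested members of 18 gene lists in LPS recovery and in ISO recovery, joined by a line for each list. Interferon, GTPase and class I medians are negative after LPS and positive after ISO. The stress, heat shock and neutrophil medians are more negative after ISO. Among 17 neutrophil genes, though, the difference was called more positive after LPS for 3 and more negative for 4.

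The interferon classes had opposite directions in the arms. Of 44 interferon-stimulated genes 41 had a more negative change after LPS and 1 a more positive one, and in ISO recovery itself 27 rose and 4 fell. All but 1 of 22 GBP and IRG genes had a more negative change after LPS, and 19 of them rose in ISO recovery. Iigp1 changed by -4.85 on the log2 scale after LPS and by 3.04 after ISO, with means of 26.3 CPM at ISO day 7 and 3.18 CPM at ISO day 1 (difference -7.89 ± 0.30, SE; edgeR adjusted p = 8.05e-15). Ifit3, Cxcl9, Cd274, Ifit3b and Ifit1 had differences of -7.73, -7.61, -7.42, -7.47 and -6.57. Cd274 encodes PD-L1, a ligand that restrains T cells, and stood at 10.7 to 11.6 CPM at LPS day 7 and at 846, 922, 301 and 370 CPM at LPS day 1. Gm12250 and F830016B08Rik, predicted genes counted in the IRG list, differed by -8.87 and -7.80. Gm4841 of the same list had no read at ISO day 1, and its fitted difference is not given. Class I genes had a more negative change after LPS in 20 of 22 cases.

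The genes named next had a more positive change after LPS than after ISO. Nmrk2, a nicotinamide riboside kinase of stressed muscle, had means of 2.75 CPM at ISO day 7 and 263 CPM at ISO day 1, and was not called after LPS, at 8.25, 1.09, 2.28 and 2.09 CPM at day 7 against 1.49 to 4.08 CPM at day 1 (difference 6.99 ± 0.70, SE; edgeR adjusted p = 5.32e-08). Klhl40, a sarcomere chaperone, Fhl1 and Thbs1, a matricellular protein, had differences of 3.95, 3.06 and 4.06, with ISO day 1 means of 246, 2229 and 199 CPM. Adam8, Adam12, Ppbp, Pak3 and Nr4a3 differed by 4.71, 3.74, 6.09, 3.82 and 4.23. In LPS recovery itself their log2 changes were -0.12, 0.76, 1.47, -1.92 and 0.47 in that order. That of Ppbp was not called, but called at 2.26 without LPS day 1 replicate 1, at 1.76 without LPS day 7 replicate 3 and at 1.48 with no count filter. Ccl6 rose after LPS and fell after ISO, at -2.70. Resident macrophage genes had a more positive change after LPS in 13 of 21 cases and a more negative one in 1. Mrc1 was not called in the ISO arm, at a change of -0.23, and its difference was 3.40 ± 0.29 (SE).

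Metabolic and contractile genes also differed between the arms. All but 1 of 22 branched-chain amino acid genes had a more negative change after LPS and none a more positive one, and 21 rose in ISO recovery. Bckdha, a subunit of the enzyme that commits these amino acids to breakdown, fell by 0.43 after LPS and rose by 0.71 after ISO (difference -1.15 ± 0.13, SE; edgeR adjusted p = 2.82e-07). Actc1 and Cacnb2 had changes of 2.43 and 2.07 after LPS and of 0.04 and -0.05 after ISO, with differences of 2.39 and 2.12. Hsph1 rose after LPS and fell by 1.93 after ISO, and Map1lc3b fell after LPS and rose by 0.40 after ISO. Potassium channels rose in both, 15 of 17 after LPS and 16 of 17 after ISO, with the difference of the changes called for 2 genes more positive and 3 more negative after LPS. Kcnip2 changed by 1.54 and 1.85, a difference of -0.30 ± 0.17 (SE) that was not called, but called at -0.40 without LPS day 1 replicate 3.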

How the data were processed

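The study holds 23 poly-A libraries of mouse heart in 6 groups. DRAGEN, bcl2fastq, limma and edgeR are named with the build mm10 in the submitters' processing notes, and the strand setting is not given in the sources used here. The authors deposited, per the file headers, an estimated count of reads, TPM and an effective length in bases (a score used only for offsets) for each of 55487 gene identifiers, of which 55227 matched the GENCODE mouse annotation, with at most 0.00574% of reads in the rest. Of the estimated counts, which the authors deposited with decimals, 9.50% were not whole, and all were rounded. Library totals ran from 20910394 to 30368985 reads, and no further column of per-sample values was present.

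Genes were kept with edgeR's filterByExpr at a minimum count of 10, scaled by TMM and fitted in edgeR 4.0.16 (R 4.3.3) by quasi-likelihood with one mean for each of the 6 groups, at a common biological coefficient of variation of 11%. Contrasts were LPS day 7 against LPS day 1, LPS day 7 against LPS baseline, and the LPS change minus the ISO change. The threshold was a Benjamini-Hochberg adjusted p of 0.05, and SE is the log2 change divided by the square root of F. Alternatives used DESeq2 1.42.0, limma 3.58.1 on log2(TPM + 0.1) or log2(TPM + 1), other scalings and filters, and libraries left out. Fits were also run on simulated counts in which few genes changed, in both directions. In these data most genes were called, so that simulation cannot check the choice of scaling. Counting intervals are at 95% and cover counting error only, with a floor of 3 counts. Named genes were the 10 highest and 10 lowest called log2 changes of each comparison whose libraries did not overlap and whose higher group averaged 5 CPM or more, up to 4 members of each list with the smallest adjusted p and up to 2 against its median, and a panel of genes; further genes were named after their values were seen. Some genes are not reported here. The groups and lists were chosen with earlier results of these data known.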

Additional observations from a re-analysis of the deposited data

Results flagged for a closer look

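Among 554 groups of 4 libraries examined for the named genes, 21 held a library whose gap to its nearest neighbour exceeded Dixon's critical share of the range, where chance gives about 1 in 20. LPS day 7 replicate 1 stood above the other 3 for Ankrd2 at 0.286 CPM, Lyve1 at 15.2 CPM, Myh7 at 441 CPM and Nmrk2 at 8.25 CPM. That library stood below the other 3 for Ifngr1 at 35.3 CPM. At day 7, replicate 2 stood above the other 3 for Angptl4 at 14.0 CPM, Myc at 3.72 CPM and Ppbp at 1.24 CPM. Replicate 3 of day 7 stood above the other 3 for C1qa at 66.6 CPM, Csf3 at 0.0351 CPM, Hmox1 at 9.96 CPM, Siglec1 at 15.5 CPM and Vcam1 at 16.1 CPM. It stood below the other 3 for Cxcl12 at 173 CPM. Replicate 4 of day 7 stood below the other 3 for Tapbp at 82.5 CPM. Among day 1 libraries, replicate 1 stood above the other 3 for 9930111J21Rik1 at 5.84 CPM. Replicate 2 of day 1 stood above the other 3 for Cldn5 at 49.1 CPM and Nppb at 137 CPM. Replicate 3 of day 1 stood above the other 3 for Mki67 at 2.73 CPM. It stood below the other 3 for Il18bp at 48.6 CPM. LPS day 1 replicate 4 stood below the other 3 for Col15a1 at 30.1 CPM.

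For 24 of the genes named in the comparison of LPS with ISO recovery the log2 changes differed by edgeR's test of the difference, LPS minus ISO. Most of them had been named because this same difference was called and large, so the list largely restates that choice. The difference was negative for Gm12250 -8.87, Iigp1 -7.89, F830016B08Rik -7.80, Ifit3 -7.73, Cxcl9 -7.61, Ifit3b -7.47, Cd274 -7.42, Ifit1 -6.57, Map1lc3b -1.78 and Bckdha -1.15. It was positive for Nmrk2 6.99, Ppbp 6.09, Ccl6 5.51, Adam8 4.71, Nr4a3 4.23, Thbs1 4.06, Klhl40 3.95, Pak3 3.82, Adam12 3.74, Mrc1 3.40, Fhl1 3.06, Hsph1 2.97, Actc1 2.39 and Cacnb2 2.12.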

How the results depend on the processing

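The choice that mattered most for direction was scaling, whose splits stand in the report. Day 7 against day 1 gave 9835 to 10360 called genes with any 1 library left out, and 3483 to 3847 at least 2-fold. The 2-fold count was 2489 with a minimum count of 50, which tests fewer genes, and 1744 on log2(TPM + 1), whose pseudocount shrinks low genes. Day 7 against baseline gave 621 to 1198 with a library left out, 2511 with library totals, 2281 on log2(TPM + 1) and 2600 with the groups fitted alone; the cause of the last 3 was not tested. The arm difference gave 5322 to 6401 with a library left out. With a replicate block, day 7 against day 1 gave 10426, 3719 of them at least 2-fold, day 7 against baseline 1423 and the arm difference 6231. Same-numbered libraries did not deviate together (r from -0.018 to 0.0475), and not every library correlated best with its own number. Of the named genes, Psme4 turned to 0.25 without LPS day 1 replicates 3 and 4. Over the named genes and alternatives of day 7 against day 1, 6213 values kept their side of the threshold, 55 lost it and 64 gained it; against baseline 475 kept it and 6 lost it, and for the arm difference 778 kept it and 2 gained it. Genes with few reads carry wide counting intervals.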
